A study of Mus musculus with 4 samples.

Results

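The regions described here are open chromatin regions that lie inside very long genes, in stem cells of the mouse hair follicle. A region was taken when the summit of a peak lay inside an autosomal protein-coding gene of 500 kb or more, over 1 kb from either end of the gene, and overlapping peaks of the wild-type and knockout lists were joined into 1 region. The rule used gene length and position only, and no measured difference between genotypes. It found 3319 regions of 77210 autosomal regions. Of 20665 autosomal protein-coding genes 216 were long enough, and 187 of these held a region. These long genes had a median length of 735 kb and covered 180.1 Mb together, and the longest measured 2270505 bp. The members held 2543 wild-type and 2593 knockout peaks whose summits met the rule, and 5 more peaks that were joined to a member although their own summit lay outside it. Since some long genes overlap others, 31 regions lay in more than 1 long gene, which gave 3370 pairs of region and gene, and 26 regions had a summit within 1 kb of the end of another protein-coding gene.

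The assay was ATAC-seq. Its transposase cuts and tags DNA that is not covered by nucleosomes, and a peak is a stretch with more tagged fragments than its surroundings. The wild-type (WT) group was 2 male mice of genotype NFIBfl/fl;NFIXfl/fl;R26-YFPfl/fl without Cre, and the double knockout (dKO) group was 2 male mice that had the same floxed alleles and reporter plus Sox9-CreER, a Cre made under control of Sox9 and switched on by tamoxifen. Both groups were sampled from back skin at postnatal day 70, when follicles rest in their second telogen. Cells were sorted as DAPI-negative, Sca-1-negative, integrin alpha 6-positive and CD34-positive, and the dKO cells were also gated on YFP, the mark that Cre had been active, so the gates differed between genotypes. The deposited data hold 1 peak list for the 2 mice of a genotype. The spread between mice is therefore unknown and no p-value was computed, and every interval below is a 95% interval of counting error that takes regions as independent. A region is called WT-only or dKO-only when it holds peaks of only that list, and shared otherwise. A missing peak is a failure to pass the caller's threshold and need not mean closed chromatin.

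Genes of this length are mostly intron, and many of them encode adhesion molecules, receptors and channels of nerve cells. Several coincide with common fragile sites, stretches of late-replicating DNA that break under replication stress. Open regions inside long introns include enhancers, which can act on the host gene or on other genes, and internal transcription starts of shorter isoforms. NFIB and NFIX belong to the nuclear factor I (NFI) family, which binds DNA as dimers at paired TTGGC motifs, and both are active in hair follicle stem cells.

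The lists differed in depth, which bears on every share below. The most frequent local background, the caller's estimate of pileup around a peak, was 5.29 for WT and 2.73 for dKO peaks. Marker genes of several cell types were looked up for a peak within 1 kb of a gene end. Such a peak was found for 11 of 13 hair follicle stem cell markers among WT peaks and for 10 among dKO peaks. Krt14 was marked in the WT list only, and Trp63 and Nfatc1 in neither. None of 4 immune markers had such a peak. The counts were equal in both lists for 2 of 6 fibroblast, 1 of 5 melanocyte, 2 of 4 endothelial and 4 of 5 upper follicle and sebaceous gland markers, while suprabasal markers had 4 of 5 in WT and 3 of 5 in dKO. These counts therefore do not separate stem cells from upper follicle or suprabasal cells. The share of all genes with such a peak was not computed. By another measure, 14551 of 31396 autosomal promoter windows, defined below, overlapped a region of either list. Snap25 and Syt1, neural genes of synaptic vesicle release, had such a peak in both genotypes, and their part in the results on neural genes was not tested.

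Few of these regions lay at transcription starts, and those that did and were found in 1 list only are shown as sequence because they are internal or first starts of the long gene itself. A RefSeq promoter window, 250 bases before to 50 bases after a start, was overlapped by 65 member regions (1.96%, interval 1.54 to 2.49), compared with 5.73% of regions inside shorter genes. Summits within 1 kb of an end of the long gene were left out by the rule, so most starts at the ends could not count. Regions at gene ends were left out of the shorter genes too. The number of promoter windows per length of gene was not compared. Counted by window, 75 windows overlapped a member, 61 of them a shared, 8 a dKO-only and 6 a WT-only region. Of all 14551 autosomal windows that overlapped a region these numbers were 13908, 293 and 350, with windows at gene ends included. For 44 members the window belonged to the long gene itself, and of these 37 were shared, 5 dKO-only and 2 WT-only. The dKO-only ones lay in Cdh18, which encodes a classical cadherin, in Magi2 and Dlgap1, which encode scaffolds of junctions and synapses, and at 2 starts of Ank2, which encodes an ankyrin that ties membrane proteins to the spectrin skeleton. The WT-only ones lay in Anks1b, which encodes an ankyrin repeat protein of synapses, and in Dlg2, which encodes a scaffold of the postsynaptic density. Windows of 6 of these starts are given from RefSeq on GRCm38.p6 (the mm10 assembly), 5′ to 3′ on the strand of the gene, and capitals mark every TTGGC or TGGCA motif on either strand, so that they also appear as GCCAA or TGCCA. The windows are chr15:23036213-23036512, plus strand (Cdh18), chr5:19226796-19227095, plus strand (Magi2), chr17:70561497-70561796, plus strand (Dlgap1), chr3:127499066-127499365, minus strand (Ank2), chr10:90829404-90829703, plus strand (Anks1b) and chr7:92234720-92235019, plus strand (Dlg2).
Cdh18: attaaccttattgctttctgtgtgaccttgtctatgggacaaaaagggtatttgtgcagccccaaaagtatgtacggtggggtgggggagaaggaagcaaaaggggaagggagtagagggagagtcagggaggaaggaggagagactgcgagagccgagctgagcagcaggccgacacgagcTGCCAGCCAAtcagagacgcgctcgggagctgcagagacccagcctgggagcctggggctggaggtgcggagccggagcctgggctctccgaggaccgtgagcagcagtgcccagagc
Magi2: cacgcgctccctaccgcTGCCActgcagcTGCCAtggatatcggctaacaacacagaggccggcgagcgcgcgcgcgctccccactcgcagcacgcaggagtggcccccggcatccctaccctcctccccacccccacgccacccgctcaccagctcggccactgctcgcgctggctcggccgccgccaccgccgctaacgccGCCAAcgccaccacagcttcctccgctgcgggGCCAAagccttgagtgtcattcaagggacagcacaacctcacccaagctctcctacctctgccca
Dlgap1: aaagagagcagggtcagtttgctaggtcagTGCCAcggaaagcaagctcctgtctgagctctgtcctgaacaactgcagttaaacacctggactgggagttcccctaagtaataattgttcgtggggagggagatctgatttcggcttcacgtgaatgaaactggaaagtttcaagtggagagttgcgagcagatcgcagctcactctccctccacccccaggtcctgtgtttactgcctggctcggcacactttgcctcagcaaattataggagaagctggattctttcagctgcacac
Ank2: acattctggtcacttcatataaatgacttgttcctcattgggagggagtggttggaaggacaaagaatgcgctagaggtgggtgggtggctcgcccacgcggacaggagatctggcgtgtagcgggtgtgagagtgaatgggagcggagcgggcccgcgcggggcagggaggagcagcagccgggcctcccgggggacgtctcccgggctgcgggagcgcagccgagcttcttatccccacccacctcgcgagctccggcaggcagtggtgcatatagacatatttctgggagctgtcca
Anks1b: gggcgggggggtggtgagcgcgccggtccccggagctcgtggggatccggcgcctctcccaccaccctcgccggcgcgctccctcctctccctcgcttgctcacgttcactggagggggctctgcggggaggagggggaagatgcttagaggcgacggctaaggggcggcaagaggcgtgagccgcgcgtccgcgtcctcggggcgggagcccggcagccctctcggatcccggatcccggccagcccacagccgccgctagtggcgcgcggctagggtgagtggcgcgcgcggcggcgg
Dlg2: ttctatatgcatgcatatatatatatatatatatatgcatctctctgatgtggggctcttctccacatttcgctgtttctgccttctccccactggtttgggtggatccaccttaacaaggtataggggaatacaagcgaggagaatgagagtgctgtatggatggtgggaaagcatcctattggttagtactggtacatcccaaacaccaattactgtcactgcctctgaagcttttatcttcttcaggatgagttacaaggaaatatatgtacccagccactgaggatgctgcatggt

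The dKO-only starts were not uniform in these letters. The Magi2 window held 2 TTGGC and 2 TGGCA motifs, the Cdh18 window 1 of each, directly side by side, and the Dlgap1 window 1 TGGCA motif, while the windows of Ank2, Anks1b and Dlg2 held neither. The 2 motifs can overlap where TTGGC is followed by A. Among all 31396 autosomal promoter windows 46.7% held TTGGC and 48.8% held TGGCA, and among the 271 windows of long genes these shares were 45% and 46.1%, so either motif alone is common. The full NFI palindrome, 2 TTGGC motifs facing each other with 5 bases between them, was in 12 of all windows (0.0382%) and in 0 of the 271. GC content differed widely among the windows shown, from 43.0% in Dlg2 to 76.3% in Anks1b. The Cdh18 window lay 488 kb from the 5′ end of its gene and the Dlg2 window 1759 kb, whereas the Magi2 window lay at 7.66 kb and the Ank2 window at 1.23 kb. At Cdh18 the dKO-only region (chr15:23035886-23036334) was 1 of only 3 regions in the gene, all dKO-only.

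Inside long genes the knockout had about as many regions of its own as the wild type, which was not so in shorter genes. Of the 3319 regions, 750 were WT-only (22.6%, interval 21.2 to 24.1), 785 were dKO-only (23.7%, 22.2 to 25.1) and 1784 were shared (53.8%, 52.1 to 55.4). Over all autosomal regions 21.2% were WT-only and 14.2% were dKO-only. The WT-only share in long genes was thus close to the background, and the dKO-only share was above it. Inside protein-coding genes under 500 kb, 26.0% of 30845 regions were WT-only and 13.4% dKO-only. The dKO-only share in long genes was 10.3 percentage points higher than in these shorter genes (interval 8.81 to 11.8), and the WT-only share was 3.39 points lower (difference -3.39, -4.90 to -1.89). Compared with the 30492 regions between genes, the dKO-only share in long genes was 5.30 points higher (3.79 to 6.81), and the WT-only share differed by 0.309 points with an interval that included 0 (-1.19 to 1.81). Leaving out the 26 regions near ends of other genes gave 22.7% WT-only and 23.8% dKO-only.

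The dKO-only share became larger with gene length, also among the long genes themselves. It was 9.79% in genes under 50 kb, 12.7% from 50 to under 100 kb, 14.2% from 100 to under 200 kb and 16.8% from 200 to under 500 kb. Within the long genes it was 18.7% (16.7 to 20.9) from 500 to under 700 kb, 22.6% (20.1 to 25.3) from 700 to under 1000 kb and 31.4% (28.6 to 34.4) in genes of 1000 kb or more. The WT-only share moved the other way and over a smaller range, from 27.5% in genes under 50 kb to 19.6% (17.2 to 22.1) in genes of 1000 kb or more. In the longest class 310 regions were dKO-only and 193 WT-only, while the class of 500 to under 700 kb had 251 and 317. The length classes were not taken at matched gene density, so how far these differences between length classes go with gene density was not tested.

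**Figure D1:**
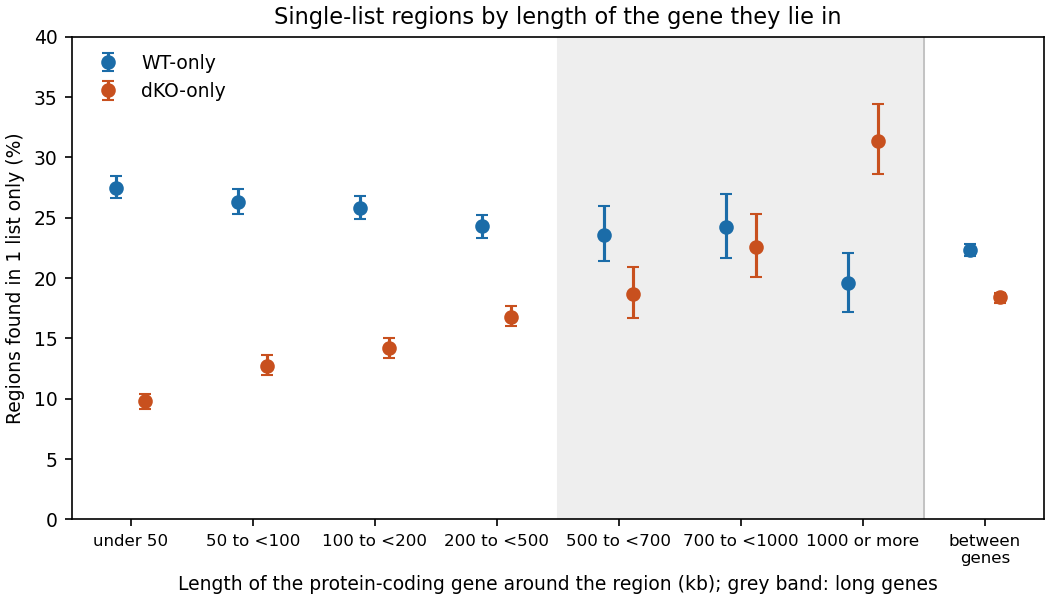
Percent of regions found in 1 list only (vertical axis) by the length of the surrounding protein-coding gene in kb (horizontal axis), with regions between genes at the right; blue points are WT-only, orange points dKO-only, bars are Wilson 95% intervals and the grey band marks the long genes. The dKO-only share goes from 9.79% in genes under 50 kb to 31.4% in genes of 1000 kb or more, where it lies above the WT-only share of 19.6%.

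Single-list regions are mostly weak peaks, and peaks in long genes were somewhat weaker than others, so the shares were also taken among peaks of like strength. Each list was split into 5 equal bins of the authors' −log10 q. Of the peaks in long genes 27.7% of the WT and 28.1% of the dKO ones fell in the weakest bin of their list, against 20% of all autosomal peaks by construction. In that bin 56.2% of dKO peaks in long genes had no WT partner (52.6 to 59.7), against 42.0% in shorter genes and 52.1% between genes. In the next bin these shares were 37.3%, 21.8% and 31.0%, in the third 20%, 9.25% and 15.6%, and in the fourth 10.0%, 2.80% and 5.31%. The dKO-only share of long genes was therefore above that of shorter genes by more than counting error in each of these 4 bins. In the strongest bin only 1 of 240 dKO peaks in long genes had no WT partner (0.417%, 0.0736 to 2.32), and the differences were within counting error.

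WT-only peaks showed another order. In the weakest bin 53.4% of WT peaks in long genes had no dKO partner, fewer than in shorter genes (60.3%). The fourth bin had 10.8% in long genes (8.32 to 14) and 6.11% in shorter genes, a difference of 4.73 points in the opposite direction (1.82 to 7.65). Among the strongest WT peaks 4 of 249 were WT-only (1.61%, 0.626 to 4.06).

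**Figure D2:**
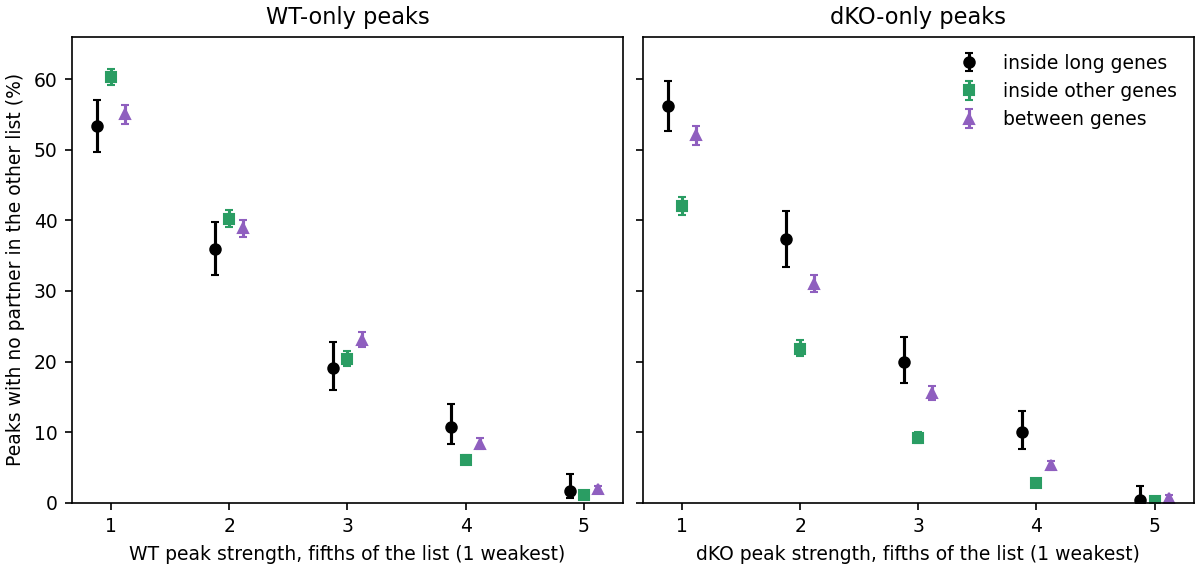
Percent of peaks without a partner in the other list (vertical axis) in 5 equal bins of peak strength by deposited −log10 q (horizontal axis, 1 weakest), for WT peaks at the left and dKO peaks at the right; symbols mark long genes, other genes and the space between genes, and bars are Wilson 95% intervals. Long genes lie above other genes in the first 4 dKO bins, from 56.2% against 42.0% in the weakest to 10.0% against 2.80% in the fourth.

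Long genes lie in gene-poor DNA, and there the difference from regions between genes was not detectable. The median number of protein-coding genes within 1 Mb was 6 for regions in long genes, 18 for regions in shorter genes and 14 for regions between genes. In the sparsest of 5 density bins, with 0 to 8 genes within 1 Mb, 25.6% of 2146 regions in long genes were dKO-only (23.8 to 27.5). In the same bin the share was 25.3% between genes, a difference of 0.247 points (-1.83 to 2.33), and 17.3% in shorter genes, a difference of 8.25 points (6.11 to 10.4). With 9 to 13 genes within 1 Mb the shares were 22.5% in long genes, 19.4% between genes and 16.2% in shorter genes. With 14 to 19 genes they were 16.8%, 17.1% and 13.8%, and the 309 regions of long genes there no longer differed from those of shorter genes beyond counting error (difference 3.02, -1.24 to 7.28). At matched gene density the dKO-only share of the members thus differed from that of shorter genes in the sparser bins, and from that of regions between genes in none of these 3 bins beyond counting error (in the second, by 3.13 points, -0.0513 to 6.31). The WT-only share was 3.78 points above that between genes in the second bin (0.475 to 7.09).

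Open regions were sparse in long genes as a group and very unevenly spread among them. The long genes had 18.5 regions per Mb of gene body (17.8 to 19.1), compared with 35.5 in genes of 200 to under 500 kb, 42.9 in genes under 50 kb and 21.6 between genes. The WT list alone gave 14.2 and the dKO list 14.4 regions per Mb. The median gene had 12.4 regions per Mb, with quartiles of 2.29 and 32.2, and the median count was 9. There was no region in 29 genes (13.4%) and 1 to 4 regions in 50, while 80 genes with 20 or more regions held 79.7% of all pairs of region and gene. Genes of 1000 kb or more had 13.5 regions per Mb as a group. Gene by gene, the Spearman correlation between length and regions per Mb was -0.0841 across the 216 genes, which share the libraries and are not independent.

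The surroundings of a gene went with its density. In flanks of the same total length on both sides, 130 genes were sparser than their flanks, 73 denser and 13 equal, and the sum over genes was 18.5 regions per Mb inside against 24.4 in the flanks. The 2 counts are not alike. Flanks took all autosomal regions by midpoint, those at ends of neighbouring genes included, while the count inside left out the long gene's own ends. How much of the difference comes from gene ends was not tested. Across the 216 genes the Spearman correlation of body and flank density was 0.535. The median flank density was 2.17 per Mb for genes without a region and 31.8 for genes with 20 or more, and 9 genes had none in either.

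**Figure D3:**
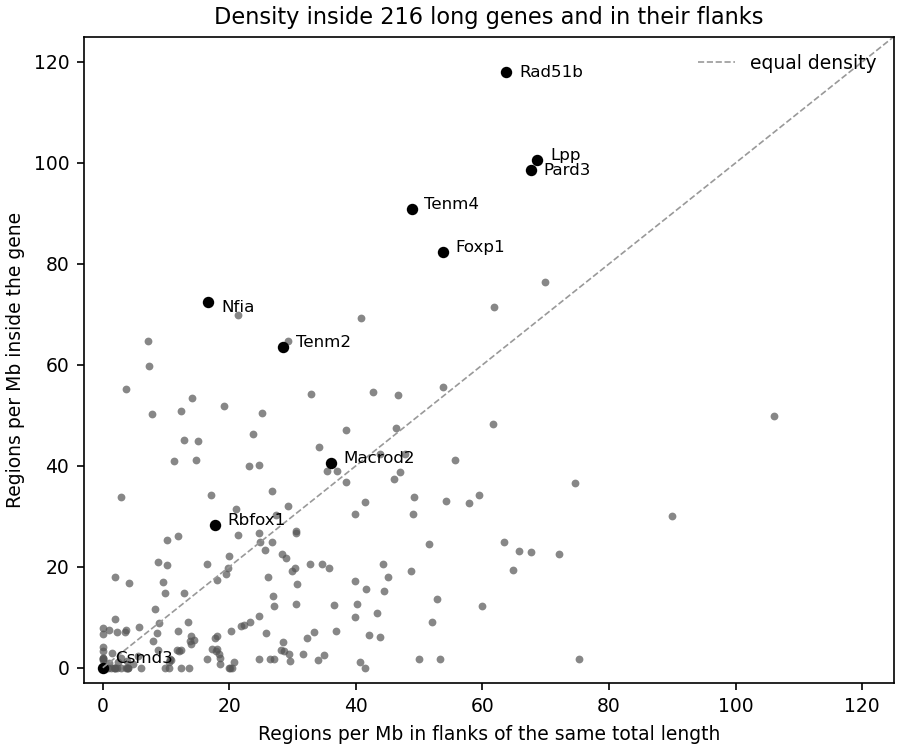
Regions per Mb inside each of the 216 long genes (vertical axis) against regions per Mb in flanks of the same total length (horizontal axis), with a dashed line at equal density. Flank counts include regions at ends of neighbouring genes. Rad51b lies highest at 118 per Mb, Nfia stands far above its flanks with 72.4 against 16.7, and Csmd3 has no region in the gene or its flanks.

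The 10 densest genes had between 69.2 and 118 regions per Mb. Rad51b, which encodes a protein of recombination repair (chr12:79297282-79848260), had 65 regions or 118 per Mb (91.4 to 151), of which 46 were shared, 11 WT-only and 8 dKO-only. Lpp, which encodes a LIM protein of focal adhesions and cell junctions (chr16:24393350-24992578), had 60 regions or 100.5 per Mb. Pard3, the polarity scaffold of epithelial junctions (chr8:127063381-127612286), had 54 regions or 98.7 per Mb. All of these also lay in dense surroundings, with 63.8 to 68.7 regions per Mb in their flanks. Tenm4, which encodes a teneurin adhesion receptor, followed with 90.8 per Mb, then Foxp1, a forkhead repressor known for holding these stem cells quiescent, with 82.3, and Arhgap26, a GTPase-activating protein, with 76.4. Nfia, an NFI gene whose alleles were not floxed, had 72.4 per Mb inside and only 16.7 in its flanks. Gmds, an enzyme of GDP-fucose synthesis, had 71.5 per Mb, Elmo1, a partner of DOCK proteins in Rac activation, 69.8, and Enox1, an electron transport protein of the cell surface, 69.2.

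Of the 29 genes without a region, only the 5 longest are named. The longest genes without any region were Csmd3, which encodes a large neuronal membrane protein, at 1212 kb, Cdh12, a neuronal cadherin, at 1149.5 kb, Sgcz, a sarcoglycan, at 1144 kb, Nrg3, a neuregulin growth factor, at 1108 kb, and Dcc, the netrin receptor, at 1098 kb. A count of 0 over these lengths allows up to 3.05 regions per Mb for Csmd3 and 3.37 for Dcc (upper limits of exact Poisson 95% intervals). Cdh12, Nrg3 and Csmd3 had nearly empty flanks as well, at 0.871, 0 and 0 per Mb, while the flanks of Sgcz held 12.3 per Mb.

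Genes with a peak at their 5′ end were denser in regions than genes without one. The 5′ end could be placed for 169 of the 216 genes, through a RefSeq promoter window that gives the strand. Both lists had a peak within 1 kb of that end in 69 genes, which had a median of 25 regions per Mb, and neither list had one in 89 genes, whose median was 3.64 per Mb. Of the 896 regions in the 89 genes 29.7% were dKO-only (26.8 to 32.8) and 20.1% WT-only (17.6 to 22.8). In the 69 genes with a peak at the 5′ end in both lists the shares were 21.3% (19.3 to 23.4) and 24.4% (22.3 to 26.5) of 1568 regions. The end was marked in the WT list only in 4 genes and in the dKO list only in 7. Foxp1 was 1 of the 7, although a shared region (chr6:99520115-99522650) reached close to that end, so a difference in where the summit was placed can decide this class. Since the annotated end can be an unused start, a missing peak there need not mean that the gene is silent.

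In sparse genes dKO-only regions outnumbered WT-only ones. In dense genes WT-only ones were more numerous, as they were over all autosomal regions (21.2% WT-only and 14.2% dKO-only). The 216 genes were ordered by their shared regions per Mb. This order is not independent of the single-list shares, because a region is either shared or single-list. A site missed in either list lowers the rank of its gene and raises its single-list count. From the sparsest to the densest group of 55 genes below, 36.8%, 49.9% and 59.2% of regions were shared. Differences in dKO-only share between these groups are therefore partly built in, and the balance of dKO-only and WT-only within a group is what is compared. In 51 genes without a shared region there were 29 dKO-only and 20 WT-only regions over 41.6 Mb. The 55 genes with the fewest shared regions per Mb held 120 dKO-only (40.1%) and 69 WT-only (23.1%) regions. In 29 of these genes dKO-only outnumbered WT-only regions, against 12 with the reverse. The middle 55 genes held 267 dKO-only and 188 WT-only regions. The 55 genes with the most shared regions per Mb held 369 dKO-only (17.9%, 16.3 to 19.6) and 473 WT-only (22.9%) regions. Of these genes 35 had more WT-only, against 17 with more dKO-only. Their dKO-only share was still above that of all autosomal regions. Over all 216 genes, 86 had more dKO-only regions, 76 more WT-only regions and 54 equal numbers, 29 of these with none. This order of 86 and 76 was the opposite among peaks with a q value of 1e-05 or less, where WT-only regions outnumbered dKO-only ones in 83 genes and were outnumbered in 71. With the WT list scaled to the dKO background, 94 genes leaned to dKO-only and 63 to WT-only. With lists of equal length these numbers were 109 and 53. Both settings remove WT peaks only, which can only move genes towards dKO-only, so they cannot test this order.

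**Figure D4:**
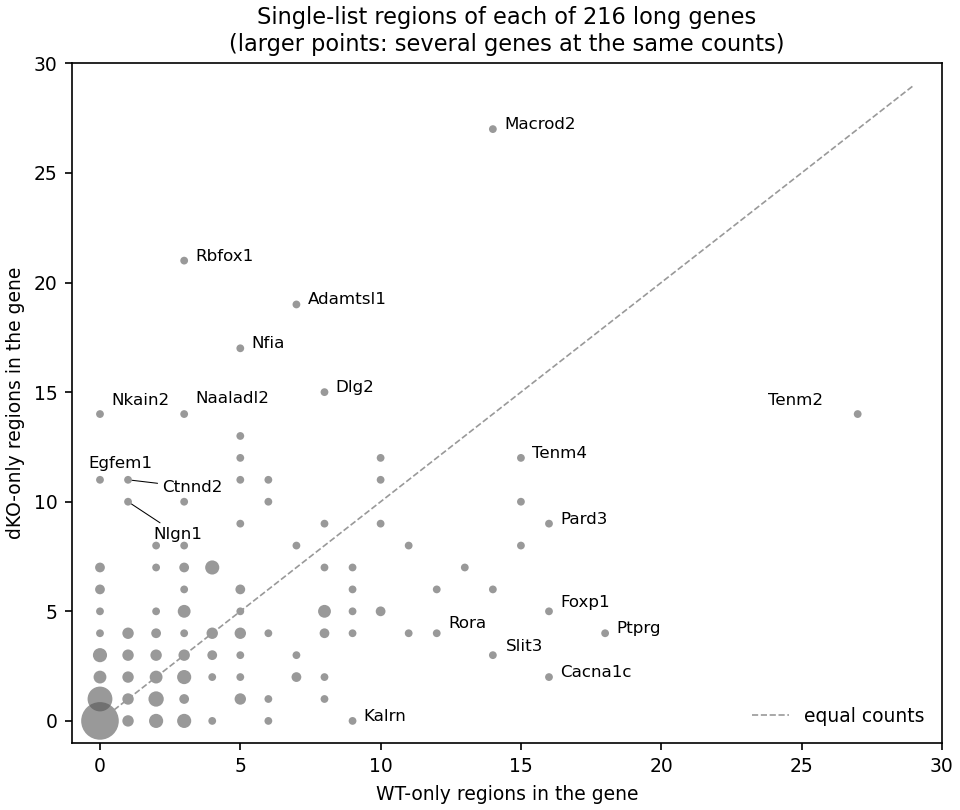
Number of dKO-only regions (vertical axis) against number of WT-only regions (horizontal axis) in each of the 216 long genes, with larger points where several genes coincide and a dashed line at equal counts. Rbfox1 with 21 dKO-only and 3 WT-only regions and Nkain2 with 14 and 0 lie far above the line, and Cacna1c with 2 and 16 and Ptprg with 4 and 18 far below it.

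Grouped by role, 140 of the 216 genes belonged to 1 or more of 6 gene lists. Synaptic and neural adhesion genes made up 45 of the long genes, with a median of 7.30 regions per Mb. Of their 662 regions 30.2% were dKO-only (26.8 to 33.8) and 23.6% WT-only (20.5 to 26.9), and 25 of the genes had more dKO-only regions, 11 more WT-only and 9 equal numbers. Signalling, matrix and growth factor genes, 20 in number, had 31.8% dKO-only (26.4 to 37.7) and 18.2% WT-only (14 to 23.4) of 258 regions, with 11 genes towards dKO-only and 3 towards WT-only. Genes of common fragile sites, 19 in number and partly the same genes, had 30.4% dKO-only and 21.8% WT-only of 454 regions. The dKO-only share of all long genes was 23.7%, and that of genes of 1000 kb or more 31.4%. The synaptic and fragile site genes lie in gene-poor DNA, with a median of 2 and 3 protein-coding genes within 1 Mb, and how far their shares go beyond length and gene density was not tested.

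Polarity, junction, cytoskeleton and receptor phosphatase genes had a lower dKO-only share than the long genes together, near that of shorter genes. These 25 genes had a median of 34.2 regions per Mb, and of 601 regions 15.5% were dKO-only (12.8 to 18.6) and 25% WT-only (21.7 to 28.6). Inside shorter genes the shares were 13.4% and 26.0%, which lie within these intervals, and over all autosomal regions 14.2% and 21.2%. More WT-only regions were found in 16 of the 25 genes, more dKO-only in 7 and equal numbers in 2. How far these shares go with the density of the genes was not tested. The 19 transcription and RNA regulators had 22.4% dKO-only and 20.9% WT-only of 425 regions, and 22 ion channel and neurotransmitter receptor genes 28.2% and 28.8% of 177 regions, which in both lists did not differ beyond counting error. The 76 genes in none of the lists had 20% dKO-only (17.5 to 22.7) and 22.0% WT-only (19.4 to 24.9) of 881 regions.

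The genes described next were picked by their counts as extremes among the 216, so their counts are a description. Among the adhesion and synapse genes, Nlgn1 and Ctnnd2 had nearly all their single-list regions in the knockout list. Nlgn1 encodes a neuroligin of the postsynaptic membrane (chr3:25421808-26332866) and had 10 dKO-only, 1 WT-only and 8 shared regions. Its dKO-only peaks had a median pileup, the height of overlapping fragments at the summit, of 18.5 and ranged from 11 to 68. Of these, 7 followed each other without another region between them over 291 kb, and the highest lay at chr3:25687738-25688616 with a fold of 11.3 over local background. Ctnnd2 encodes a delta-catenin of neuronal junctions (chr15:30172534-31029344) and had 11 dKO-only, 1 WT-only and 8 shared regions, with 5 consecutive dKO-only regions over 85.6 kb. The teneurin gene Tenm2 and the scaffold gene Dlgap2 differed from these, but other teneurin and scaffold genes did not share 1 direction. Tenm3 had 10 WT-only and 11 dKO-only regions, Tenm4 15 and 12, Dlgap1 3 and 7, and Dlg2 8 and 15. Tenm2 (chr11:36006656-37237053) had 37 shared, 27 WT-only and 14 dKO-only regions, with 6 consecutive WT-only regions over 58.7 kb, and Dlgap2, which encodes a postsynaptic scaffold, had 10 shared, 11 WT-only and 4 dKO-only regions.

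Among channel genes the opposite extremes were Cacna1c and Nkain2. Cacna1c encodes the pore of an L-type calcium channel (chr6:118587240-119197384) and had 15 shared, 16 WT-only and 2 dKO-only regions. Its WT-only peaks had pileups from 15 to 85 with a median of 25.5, and 5 of them followed each other within 16.1 kb. Nkain2 encodes a protein that binds the sodium pump (chr10:31689310-32897174) and had 14 dKO-only, 0 WT-only and 9 shared regions, so each WT peak in this gene had a dKO partner. Kcnma1, a calcium-activated potassium channel, had 13 shared, 15 WT-only and 10 dKO-only regions, with 6 consecutive WT-only regions within 36.0 kb. Dpp10, an accessory subunit of potassium channels that spans 1514 kb, held 3 regions, all dKO-only, with pileups from 12 to 52.

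Transcription and RNA regulators included Rbfox1, the gene with the largest excess of dKO-only regions. Rbfox1 encodes a splicing factor (chr16:5884793-7412480) and had 21 dKO-only, 3 WT-only and 19 shared regions. Of the dKO-only regions 9 were consecutive over 180.2 kb, the run with the most regions in any long gene. The peaks of this run had pileups between 12 and 70 with folds of 3.49 to 8.77, so both weak and strong peaks of the list took part. The strongest dKO-only peak of the gene lay outside the run, at chr16:6756663-6757368, with a pileup of 70 and a fold of 11.5.

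Nfia, an NFI family member that was not targeted, was next among the regulators. It had 17 dKO-only, 5 WT-only and 17 shared regions over 541 kb (chr4:97578066-98118876). The dKO-only peaks had a median pileup of 17 and a range of 9 to 92. Near its 5′ end 5 consecutive dKO-only regions stretched over 66.1 kb, of which the strongest had pileups of 39 and 38 and folds of 8.89 and 8.91. The shared regions of Nfia were stronger in each list, with a median WT pileup of 75 and a median dKO pileup of 43 (pileups are not scaled between lists). Foxp1 had the opposite pattern, with 16 WT-only, 5 dKO-only and 28 shared regions (chr6:98925342-99522746), and 6 consecutive WT-only regions over 83.4 kb. Its strongest WT-only peak (chr6:99501220-99502114) had a pileup of 113, and its WT-only peaks had a median of 24, against 63.5 for its shared peaks in the same list. Rora, which encodes a nuclear receptor, had 16 shared, 12 WT-only and 4 dKO-only regions.

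Polarity, phosphatase and cytoskeleton genes mostly had more WT-only than dKO-only regions, as was also so over all autosomal regions. Ptprg encodes a receptor tyrosine phosphatase (chr14:11553440-12242041) and had 19 shared, 18 WT-only and 4 dKO-only regions, with 59.7 regions per Mb inside and 7.28 in its flanks. Its WT-only pileups ran from 17 to 93 with a median of 33.5, against a median of 68 for its shared peaks in the same list. Kalrn encodes an exchange factor for small GTPases (chr16:33969073-34573277) and had 13 shared, 9 WT-only and 0 dKO-only regions, so each dKO peak there had a WT partner. Arhgap26 had 14 WT-only and 6 dKO-only regions among 59, and Pard3 16 and 9 among 54. Ptprt, another receptor phosphatase, was an exception with 6 dKO-only, 0 WT-only and 2 shared regions, the 6 in 1 run over 843 kb. Ptprn2, a phosphatase-like protein of secretory granules, had 7 dKO-only, 4 WT-only and 16 shared.

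Matrix and signalling genes mostly leaned to the knockout list, with Slit3 as the main exception. Adamtsl1 encodes a secreted matrix protein (chr4:85513852-86428390) and had 19 dKO-only, 7 WT-only and 17 shared regions. Egfem1 encodes a protein with EGF-like domains (chr3:29081653-29691058) and had 11 dKO-only, 0 WT-only and 5 shared regions. Slit3 encodes a ligand of Robo receptors (chr11:35121456-35708507) and had 15 shared, 14 WT-only and 3 dKO-only regions. Gpc6, a glypican of the cell surface, had 20 shared, 8 WT-only and 4 dKO-only regions.

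Among genes of fragile sites, Macrod2 and Naaladl2 had more dKO-only regions and Immp2l more WT-only ones. Macrod2 encodes an ADP-ribose hydrolase (chr2:140395303-142392966) and had 27 dKO-only, 14 WT-only and 40 shared regions. Its dKO-only peaks had a median pileup of 15, against 44.5 for its shared peaks in the same list. Naaladl2 (chr3:23798103-25144149) had 14 dKO-only, 3 WT-only and 18 shared regions. Immp2l, a subunit of a protease of the inner mitochondrial membrane, had 22 shared, 13 WT-only and 7 dKO-only regions.

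Along some genes, regions of 1 class followed each other in series. A run of 4 or more consecutive regions of the same single-list class was present in 23 genes for dKO-only and in 14 genes for WT-only, and a run of 5 or more in 15 and 8 genes. In sparse genes a run can cover most of the gene: the 6 regions of Cntnap5a, a contactin-associated protein gene named here because its run stands out, were all WT-only and spread over 721 kb. Runs were compact in the denser Cacna1c and Kcnma1, but the width of a run did not simply go with density. In Foxp1, with 82.3 regions per Mb, 6 WT-only regions spread over 83.4 kb. In Dab1 and Dlg2, with 12.5 and 19.3 regions per Mb, 5 dKO-only regions lay within 30.8 kb and 33.0 kb. In 13 genes all regions were dKO-only and in 5 all were WT-only, and each of these genes held few regions, with 6 in Cntnap5a as the most. How often runs of this length arise by chance was not tested.

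**Figure D5:**
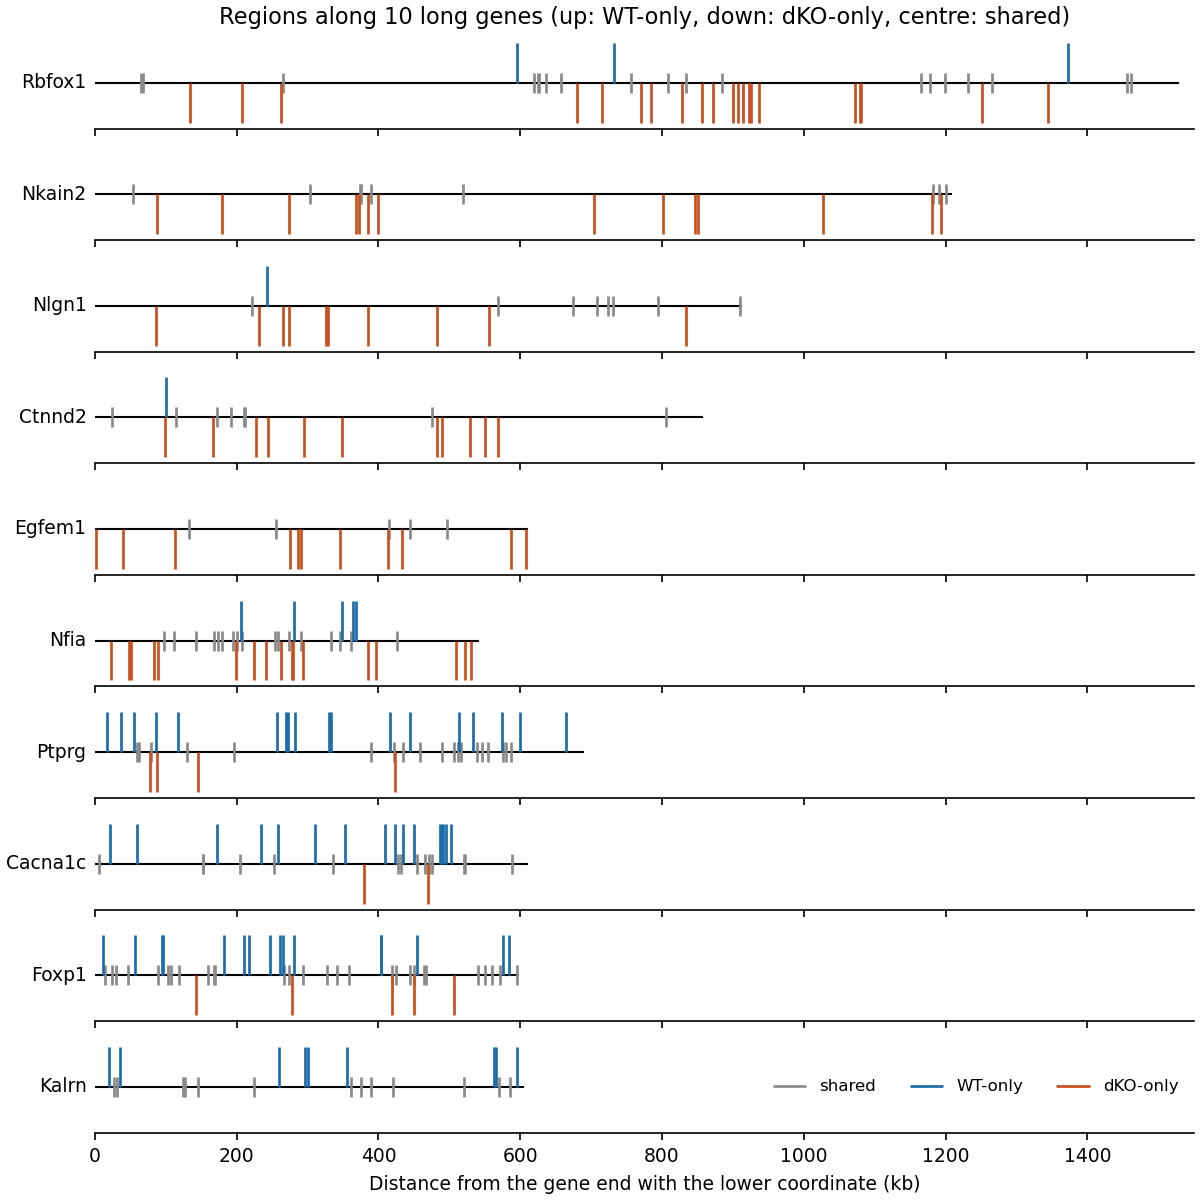
Regions along 10 long genes, drawn by distance in kb from the gene end with the lower coordinate (horizontal axis); ticks pointing up are WT-only, ticks pointing down dKO-only and centred grey ticks shared regions. Rbfox1 shows the series of 9 dKO-only regions over 180.2 kb, Nkain2 and Egfem1 have no tick pointing up, and Kalrn has none pointing down.

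Along the gene, position was described for regions away from the ends only, since the rule leaves out summits within 1 kb of an end and so any peak at the 5′ end itself. In the 169 genes with a placed 5′ end, 5.76% of 2658 member regions lay within 50 kb of that end, which is 5.88% of the length of these genes, with peaks at the end itself not counted. The part of the gene nearest the 5′ end (0 to 10% of its length) held 8.50% of the regions and the part nearest the 3′ end (90 to 100%) held 12.8%. The median dKO-only region lay at 53.7% of the gene length from the 5′ end, the median WT-only region at 58.5% and the median shared region at 58.6%. The dKO-only share was 29.7% (24.1 to 36.0) at 10 to 20% of the length and 20.8% (16.8 to 25.4) at 90 to 100%, with overlapping intervals.

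The dKO-only regions stood further from other regions than the WT-only ones did. The median gap to the nearest other region was 9.31 kb for dKO-only, 5.45 kb for WT-only and 6.15 kb for shared regions in long genes. A gap of over 50 kb isolated 14.4% of the dKO-only and 5.60% of the WT-only regions. Inside shorter genes the same shares were 4.06% and 1.65%, and between genes 9.29% and 3.71%. Isolated regions were thus more frequent among dKO-only regions in all 3 places and most frequent in long genes.

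Most members lay in DNA with no other annotated gene. Of the 3319 regions 2966 (89.4%) overlapped no promoter window, no other protein-coding gene, no noncoding RNA gene and no pseudogene. A long noncoding RNA gene was overlapped by 242 (7.29%), with 7.87% of WT-only, 6.75% of dKO-only and 7.29% of shared regions, and another protein-coding gene by 67. Whether a region lies in an exon or an intron was not analysed here. Member peaks in the WT list had a median width of 650 bp, a pileup of 48 and a fold of 5.72, against 675 bp, 61 and 5.45 in shorter genes. In the dKO list the medians were 607 bp, 27 and 5.97 in long genes and 613 bp, 33 and 5.68 in shorter genes. Pileups were thus lower and folds slightly higher in long genes in both lists.

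The strongest single-list regions were well above the threshold of their lists. By the authors' −log10 q the first WT-only region was chr3:153198754-153199816 near the 3′ end of St6galnac3, a sialyltransferase gene, with a pileup of 325, a fold of 16.1 and a −log10 q of 265. The next were chr8:14712630-14714086 in Dlgap2, with a pileup of 215 and a −log10 q of 147, and chr8:108368530-108369866 in Zfhx3, a homeodomain transcription factor gene, with 168 and 132. The first dKO-only region was chr3:29356238-29357540 in Egfem1, with a pileup of 91, a fold of 12.3 and a −log10 q of 67.4. It was followed by chr9:28911562-28912543 in Opcml, an adhesion molecule gene, with a pileup of 80 and a −log10 q of 60.1, and chr16:74526407-74527117 in Robo2, a Slit receptor gene, with 70 and 58.6. Opcml had equal numbers of WT-only and dKO-only regions (4 each) and Robo2 nearly so (8 and 7), so a strong single-list region did not need an excess in its gene.

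Shared regions included the peaks with the highest −log10 q of the set. The first was chr8:81767142-81769325 in Inpp4b, a phosphoinositide phosphatase gene, with a WT −log10 q of 568, a WT pileup of 786 and a dKO pileup of 287. In Immp2l the region chr12:41350410-41352217 had a WT −log10 q of 497 and pileups of 822 and 166, and in Gmds the region chr13:31954978-31956169 had a WT −log10 q of 459 and pileups of 753 and 323. Most shared members, 1748 of 1784, joined 1 WT and 1 dKO peak, and 36 held more than 2 peaks, as in Ptprg where 1 WT peak spanned 3 dKO peaks (chr14:12059124-12061826).

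Genes on either side of the length threshold varied widely in their number of regions. Just inside it were Edil3 at 502 kb with 0 regions, Dock1 at 503 kb with 9 and Samd12 at 503 kb with 25. Just outside were Dnm3 at 496 kb with 29 regions, Lrrc7 at 495 kb with 3 and Cacna1e at 494 kb with 11.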

How the data were processed

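ATAC-seq peaks of WT and dKO hair follicle stem cells were taken from 1 deposited list per genotype, which the labels assign to 2 mice each. The submitters' processing notes name Bowtie2 2.2.9, Picard, MACS2, mm10 and GRCm38, with no role or order. For the pooling of mice, any read shift for the transposase and duplicate handling, settings were not given in the sources used here. As signal, the authors deposited the pileup at the summit, with no scaling for depth. The deposited fold is a ratio, summit pileup over local background with 1 added to both, and the −log10 p and −log10 q are the authors' peak significance. As a check, a Poisson p-value recomputed from pileup and background came within 0.001 of the deposited −log10 p, where that was under 250, for 99.981% (WT) and 99.997% (dKO) of peaks. Both lists ended at a −log10 q of 1.30, a q value of 0.05. Pileup, fold and q were used to compare or rank peaks only within a list, and pileups of both lists given for 1 region are not on a common scale.

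The lists held 68197 WT and 63548 dKO peaks. Total read counts are not in the peak lists, so depth was read from the local background. Peaks overlapping by 1 bp or more were joined, which gave 79122 regions with those on chromosomes X and Y. Genes came from a RefSeq table of GRCm38.p6, and strand and starts from its promoter windows, which matched 169 of the 216 long genes. Analyses used Python 3.11.15, numpy 2.4.6, pandas 2.3.3, scipy 1.17.1 and matplotlib 3.10.9, and overlap counts differed by 0 from bedtools 2.31.1. The counting steps were tested on simulated data. Shares carry Wilson, differences normal and densities exact Poisson 95% intervals, without a p-value.

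The members, gene lists and comparisons were chosen with earlier results of these data known. Named genes were Nfia, the 10 densest genes with 10 or more regions, the 8 with the greatest excess of each single-list class, the 5 longest without a region, up to 2 per list and direction with a net difference of 2 or more, and the 3 strongest regions of each class. Genes at single-list starts, at the length threshold and Cntnap5a were named after their values were seen. Part of the neural marker list is not reported here. Alternatives covered the overlap rule, q threshold, list length, WT depth, gene length, margin, placement and strength or gene density bins.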

Additional observations from a re-analysis of the deposited data

Results flagged for a closer look

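The rule was limited to autosomes, so regions in long genes of chromosome X entered none of the comparisons above. Of 11 protein-coding genes of 500 kb or more on chromosome X, 9 held regions, 58 in all, which is a signal in data outside the main comparison. These were 14 WT-only, 16 dKO-only and 28 shared regions, at 5.55 regions per Mb. The mice were male and so carried fewer copies of chromosome X than of the autosomes, and the effect on this density was not tested.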

How the results depend on the processing

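With 1 list per genotype, leaving out a mouse was not possible, and counting intervals do not cover variation between mice. No paired analysis was possible because the labels give the mice no shared replicate numbers and the result comes from no test. The WT list was the deeper one, so weak dKO sites are the more easily missed, and no setting replaces a matched depth.

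The dKO-only excess of long genes over shorter genes (10.3 points) was positive under all alternatives but 1, gene density bin 5, which held 23 regions (-0.914). It was 3.57 when only single-list regions from the stronger 50% of their list were kept, beside all shared regions of any strength. It was 8.18 for genes of 300 kb or more and 17.6 for 1000 kb or more, 8.17 against genes of 100 to under 500 kb and 5.30 against regions between genes. By strength bin it was 14.2, 15.4, 7.22 and 0.129 in bins 1, 2, 4 and 5, and by gene density 8.25, 6.24, 3.02 and 4.49 in bins 1 to 4. The interval included 0 in strength bin 5 (-0.710 to 0.968). It also included 0 in gene density bins 3 (-1.24 to 7.28), 4 (-2.29 to 11.3) and 5 (-12.4 to 10.6). The WT-only difference (-3.39) was less stable. It was reversed with only single-list regions from the stronger 50% of their list kept beside all shared regions (1.22), and against regions between genes (0.309). It was also reversed in strength bins 4 (4.73) and 5 (0.441) and in gene density bin 2 (1.97). It was -6.29 for genes of 1000 kb or more, -6.90 and -1.29 in strength bins 1 and 3, and -1.66 and -15.0 in density bins 1 and 5. The cause was not tested.

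The WT-only and dKO-only shares of long genes were 27.1% and 28.5% with summits within 200 bp, 26.5% and 20.1% for q values up to 1e-05, 19.0% and 27.5% with lists of equal length, 5.37% and 5.12% for the stronger 50% of peaks, and 19.6% and 31.4% for genes of 1000 kb or more. The dKO-only share was 20.8% for genes of 300 kb or more, and the WT-only share 21.1% with WT scaled to the dKO background. At 0.5 of that background, a setting chosen after seeing the data, the shares were 15.4% and 32.8%, the dKO-only difference was 12, and 38 genes had more WT-only against 128 with more dKO-only regions. With equal lengths these numbers were 53 and 109. Scaling the WT list and equalising lengths remove WT peaks only, so they can move these gene counts only towards dKO-only. Density was 15.8 per Mb at the stricter q, 14.2 in the WT list, 14.4 in the dKO list, 23.6 from 300 kb and 13.5 from 1000 kb. Leaving out each gene in turn moved the dKO-only difference only between 9.97 (without Rbfox1) and 10.5 (without Arhgap26).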
